A study of Physcomitrium patens with 10 samples.

Results

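The comparison described here is the second step of recovery in dried moss shoots: fully recovered gametophores (FRE) against partially recovered ones (PRE). Gametophores are the leaf-bearing shoots of a moss, here Physcomitrium patens grown on BCD medium, dried and then rewetted, and their RNA fragments of 18 to 30 nt were sequenced. Members were chosen by sample title, which gives 4 of the 10 samples of the series, 2 replicates titled FRE and 2 titled PRE. The other groups, which enter only as levels, are hydrated (HD), moderately dehydrated (MDH) and desiccated (SDH) gametophores, 2 replicates each. No genotype, age or duration of rewetting is given in the labels. The treatment field disagrees with the title in 7 of the 10 samples, among them all 4 FRE and PRE samples. It calls both PRE samples and 1 FRE sample severely dehydrated and the other FRE sample partially rehydrated. Every direction below, and every level given for HD, MDH and SDH, therefore rests on the titles and on the column names of the files. These carry the same group names.

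Plant miRNAs are short RNAs that guide ARGONAUTE proteins to matching messenger RNAs, which are then cleaved or repressed. Several families of this moss are shared with flowering plants and regulate transcription factors of shoot development and auxin response, while many others are known only from mosses. Each miRNA is cut from a hairpin precursor as a duplex of 2 arms (5p and 3p, or the unmarked arm and the star arm, *), of which 1 is usually kept.

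The files hold 1 level per state, in reads per 1000000 (RPM), for 280 mature miRNA names of 108 families. No value per replicate is given, and how the 2 replicates of each state entered its level is not stated. Differences are therefore given without errors or tests, none could be checked between replicates, and the read depth is unknown. All names together came to 571803 RPM in FRE and 407334 RPM in PRE, 1.40-fold higher, and 260 names lay above 0 in each. With near-identical copies counted once the sums were 312263 and 226787 RPM in FRE and PRE. Tissue identity could not be checked from miRNAs, and in whole shoots a change in the share of a cell type cannot be told apart from a change of level within its cells.

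A name was compared where it reached 3 RPM in the higher of the 2 states, and was called where log2((FRE + 1)/(PRE + 1)) reached 2-fold. Of 214 compared names, 15 were higher in FRE, 7.01% of those compared, and 21 were lower, 9.81%. The calls came from 11 and 14 families, and 16.8% of compared names were called in either direction. All compared names had a median log2 fold change of 0.03, with quartiles of -0.48 and 0.48, and 134 of 214 names, 62.6%, lay within 1.5-fold. Setting FRE and PRE to the same summed miRNA level, an alternative chosen after the data were seen, moved the median of all compared names to -0.43 and gave 5 higher and 50 lower names. That scaling lowers every FRE level and leaves PRE unchanged, so all 21 lower calls were certain to remain and only higher ones could be lost. Of the 15 higher calls, 5 remained: miR1041, miR1077-3p, miR319d.2*, miR1060 and miR1072.

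**Figure D1:**
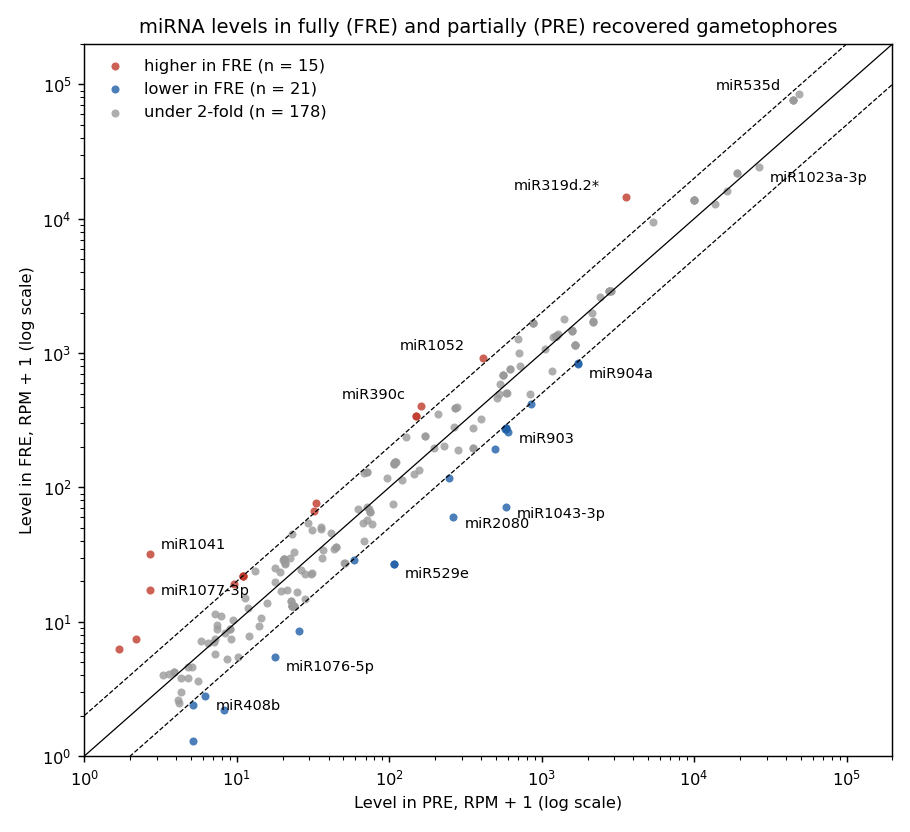
Level of each of the 214 compared miRNAs in FRE (vertical axis) and PRE (horizontal axis), as RPM + 1 on log scales; the solid line marks equal levels and the dashed lines 2-fold. The 15 names higher in FRE lie on or above the upper dashed line and the 21 lower names below the lower one, with miR1041 and miR1043-3p farthest out.

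The most abundant miRNAs kept their order. miR535d was at 84852 RPM in FRE and 48898 RPM in PRE, and miR535a at 77144 and 44330 RPM; miR535b and miR535c were near-identical to miR535a. These 4 names held the highest levels in both states. Adaptor ligation and PCR favour some small RNAs, so the ranking of different miRNAs is less certain than the ratio of 1 miRNA between states. None of the 4 passed 2-fold, with log2 fold changes of 0.80 each (0.31 scaled to the summed miRNA level). As a family, miR535, whose sequence is related to that of miR156, summed to 316284 RPM in FRE and 181887 RPM in PRE. It held 55.3% of all summed RPM in FRE and 44.7% in PRE. These sums and shares count the near-identical miR535a, miR535b and miR535c separately, although reads shared between them cannot be assigned. Its gain of 134397 RPM equalled 81.7% of the net gain of all names, and 80.5% with copies counted once. Without miR535 the sums were 255519 RPM in FRE and 225446 RPM in PRE.

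On the RPM scale, several other abundant names were closer to level. miR1023a-3p, at rank 5 in both states, stood at 24258 RPM in FRE and 26612 RPM in PRE. Its log2 fold change was -0.13, and -0.62 scaled to the summed miRNA level. miR156c, of the family that targets SPL transcription factors of shoot development, was at 21728 and 19252 RPM. Its log2 fold change of 0.17 became -0.31 with that scaling. miR536b was at 13873 RPM in FRE and 9958 RPM in PRE. Its log2 fold change of 0.48 became -0.01 with scaling to the summed miRNA level. The 13 miR166 names, 3 values with copies counted once, target HD-ZIP III genes. They lay between 0.11 and 0.31 on the log2 scale, with miR166m at 2623 and 2427 RPM. The family's log2 fold change of 0.15 became -0.34 under that scaling. miR1033b, at 2885 and 2845 RPM, was close to level on the RPM scale and came to -0.47 scaled to the summed miRNA level.

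**Figure D2:**
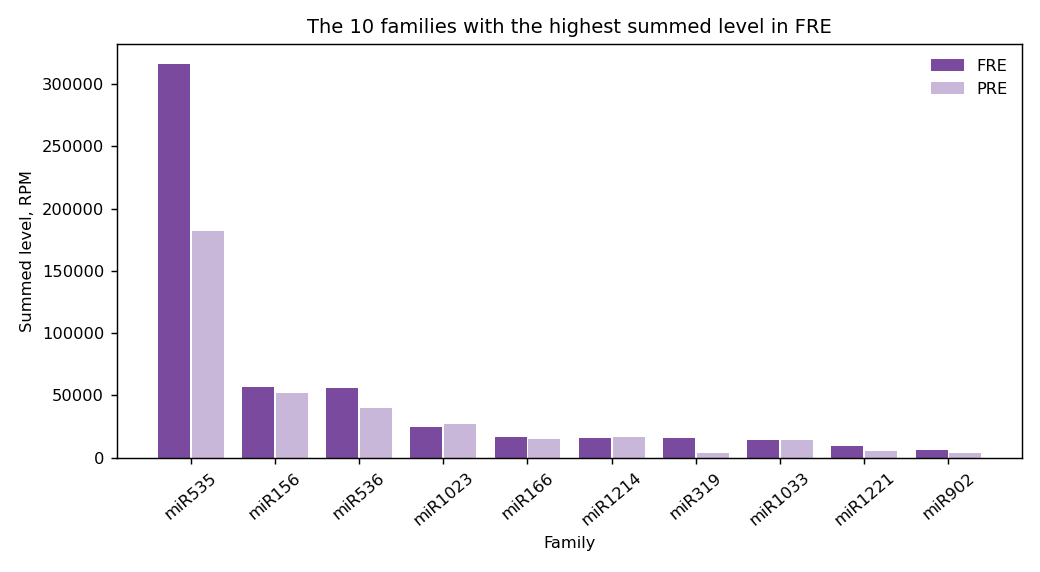
Summed level in RPM of the 10 families with the highest sums in FRE, FRE in dark and PRE in light bars, 1 authors' value per state. The miR535 pair, at 316284 RPM in FRE and 181887 RPM in PRE, shows the widest gap, and miR319 has the largest ratio.

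Among the SPL-related families miR156, miR529 and miR535, 0 of 14 compared names were higher in FRE and 2 were lower, against 7.01% and 9.81% over all names. Their median log2 fold change was -0.01. Both lower names were scarce miR529 members: miR529e was at 26.0 RPM in FRE and 107 RPM in PRE, 4.12-fold lower, and miR529f, a near-identical copy, had the same level in FRE and 107 RPM in PRE. In the earlier states miR529e was at 8.4 RPM (HD), 18.6 RPM (MDH) and 11.8 RPM (SDH), so its level in PRE stood above those of all 4 other states. The abundant member miR529b was at 1478 RPM in FRE and 1591 RPM in PRE, and the family sum of 4754 against 5256 RPM had a log2 fold change of -0.14.

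In the auxin-related list, 5 of 16 compared names were higher in FRE and 0 were lower, beside 7.01% and 9.81% over all names (list median 0.07 on the log2 scale). miR390c directs the cutting of TAS3 transcripts into small interfering RNAs, which act on auxin response factors. It was at 399.7 RPM in FRE and 161 RPM in PRE, 2.48-fold higher. Its star arm stood at 18.2 and 8.6 RPM, exactly 2-fold on the scale with 1 RPM added. Both arms had their highest levels in HD, at 985.5 and 30.1 RPM. The related miR390a and miR390b, more abundant than miR390c in PRE and FRE, did not pass 2-fold: miR390b was at 462 RPM in FRE and 509 RPM in PRE. Within the family the 4 names thus ranged from -0.14 to 1.31 on the log2 scale, and the sum of 1372 against 1204 RPM had a log2 fold change of 0.19 (-0.30 scaled to the summed miRNA level).

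The other 3 higher names of the list were miR1219a, miR1219b and miR1219c, members of a moss family that targets auxin response factor genes. They have identical values, 21.1 RPM in FRE and 10 RPM in PRE, and count as 1 observation. With copies counted once, 3 of 12 auxin-related values were higher, beside 12 of 147 over all families. They include both arms of miR390c and come from 2 families. miR1219d was at 22.7 RPM in FRE and 12.2 RPM in PRE (0.84 on the log2 scale). The 8 compared miR160 names, which also target auxin response factors, ran from -0.32 to 0.28 and none was called. miR160a stood at 34.8 RPM in FRE and 43.6 RPM in PRE. Scaled to the summed miRNA level, no auxin-related name passed 2-fold upward.

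Of 26 names from the other developmental families (miR166, miR171, miR319, miR534 and miR538), 1 was higher and 0 were lower, 3.85% and 0% beside 7.01% and 9.81% over all names, and the list median was 0.13. That name, miR319d.2*, was the sole higher call among names of 1000 RPM or more, at 14558 RPM in FRE and 3572 RPM in PRE, 4.08-fold higher. Its level in FRE also stood above those of HD, MDH and SDH, at 10045, 6594 and 6112 RPM, and it moved to rank 9 of all names in FRE, against rank 15 in PRE. miR319 is known for targeting TCP and MYB transcription factors in land plants, and its precursors are known to release more than a single duplex. Whether miR319d.2*, a star arm, shares those targets was not tested. All 7 miR319 names had positive log2 fold changes, from 0.47 for miR319b to 2.03, though miR319b came to -0.0049 with scaling to the summed miRNA level. miR319d.1* was at 349.6 RPM in FRE and 208 RPM in PRE, and miR319d at 129 and 70.9 RPM, both under 2-fold. The family sum, 15392 RPM in FRE and 4058 RPM in PRE, was 3.79-fold higher and consisted mainly of miR319d.2*. The stress-linked list of 8 names is these 7 and miR408b, with 1 higher (miR319d.2*), 1 lower (miR408b) and a median of 0.80. These are 12.5% each, beside 7.01% and 9.81% over all names.

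The 3 compared names of the small RNA machinery list all had negative log2 fold changes, and 2 were called lower, beside 9.81% lower over all names (median -1.05). Both are miR904, which targets AGO1, the gene of the main miRNA-binding protein, in this moss. miR904a was at 839 RPM in FRE and 1737 RPM in PRE, 2.07-fold lower, and its near-identical copy miR904b at 832 and 1723 RPM. PRE held the highest miR904a level of the 5 states, with HD at 740.2, MDH at 955 and SDH at 1056 RPM. miR1047-3p, from the transcript of the miRNA-processing enzyme DCL1, was at 6.5 RPM in FRE and 8.2 RPM in PRE. The nutrient and copper list had 1 compared name, miR408b, whose family targets copper proteins. It was at 1.8 RPM in FRE and 5.2 RPM in PRE, 2.89-fold lower, both far below the 114 RPM of HD.

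Over the conserved land-plant families as a whole, 3 of 65 compared names were higher (miR390c, miR390c* and miR319d.2*) and 10 lower, with a median of 0.11. These are 4.62% and 15.4%, beside 7.01% and 9.81% over all names. Of the 10, 6 belonged to miR477, 2 to miR529, and the others were miR408b and miR536f. No miR477 name was higher. miR477a-3p was at 194 RPM in FRE and 493 RPM in PRE, 2.55-fold lower, and its 5p arm at 275 and 584 RPM, 2.13-fold lower. miR477b, miR477c and miR477e had levels close to those of the 5p arm and shared its fold, and miR477d stood at 415 RPM in FRE and 852 RPM in PRE. The 4 members not called, miR477f, miR477g-5p, miR477g-3p and miR477h, were lower too, with log2 fold changes of -0.86, -0.86, -0.77 and -0.53. The most abundant in FRE, miR477g-3p, was at 493 RPM there and 839.6 RPM in PRE. All 10 names had negative log2 fold changes, between -1.35 and -0.53. Together they summed to 2638 RPM in FRE and 5288 RPM in PRE, beside 1775 RPM in HD, 4172 RPM in MDH and 4509 RPM in SDH.

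**Figure D3:**
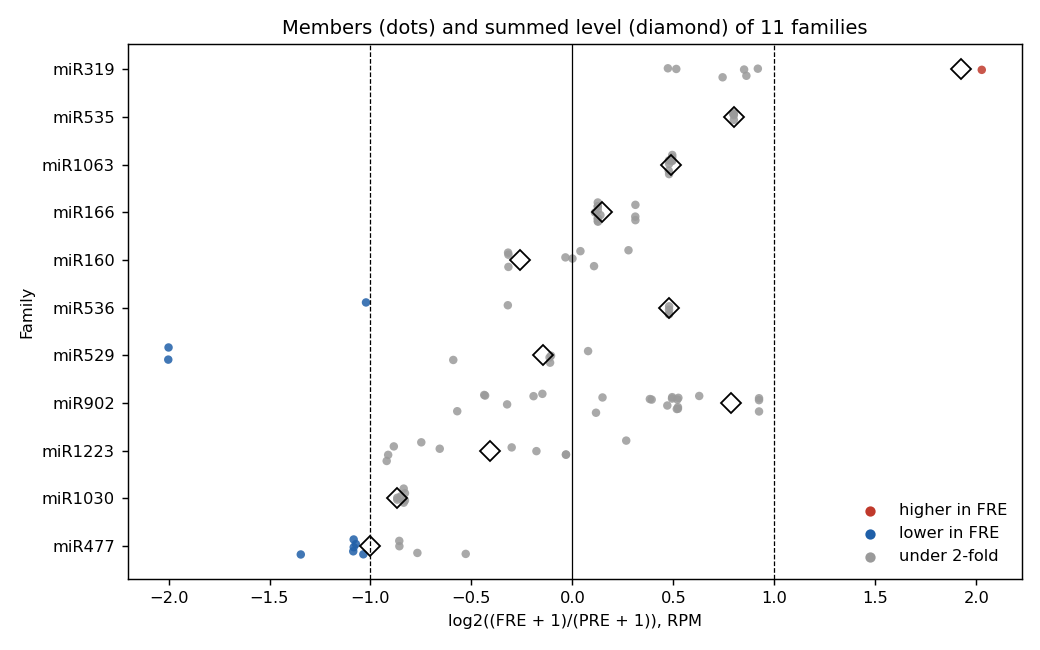
log2((FRE + 1)/(PRE + 1)) of the compared members of selected families (dots, coloured by call) and of each family's summed RPM (open diamonds), with dashed lines at 2-fold. miR535, miR1063 and miR1030 members lie close together, whereas miR529, miR536 and miR902 members spread to both sides of 0, and every miR477 member lies below 0. The miR535, miR1063 and miR1030 names are mostly near-identical copies, 2, 2 and 1 values with copies counted once, so their closeness was fixed in advance.

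Families outside the conserved list gave 12 higher and 11 lower names of 149 compared, with a median of 0.02. Their shares of 8.05% and 7.38% lay near the 7.01% and 9.81% over all names. With 1 RPM added, miR1041 had the largest upward log2 fold change, 3.56. It was at 30.9 RPM in FRE and 1.7 RPM in PRE, 18.2-fold higher as a plain ratio. miR1077-3p followed with a log2 fold change of 2.68, at 16.3 and 1.7 RPM, 9.59-fold higher as a plain ratio. Both sizes and ranks rest on the low level in PRE. With 10 RPM added the log2 fold changes were 1.81 for miR1041 and 1.17 for miR1077-3p, below the 2.02 of miR319d.2*, and miR1077-3p was also below miR390c at 1.26. Both had their highest levels in HD, at 43.3 and 51.4 RPM, and lay between 0.1 and 6.4 RPM in MDH and SDH. miR1072 had the same order of states as miR1041, with 6.5 RPM in FRE, 1.2 RPM in PRE and 37.6 RPM in HD, and miR1060 was at 5.3 and 0.7 RPM in FRE and PRE.

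Other higher names did not follow that course. miR1215 was at 75.1 RPM in FRE and 31.9 RPM in PRE, 2.35-fold higher, beside 43.0, 39.4 and 34.5 RPM in HD, MDH and SDH. miR1024a and miR1024b, with identical values, were at 342 RPM in FRE and 149.8 RPM in PRE, 2.28-fold higher, and lay between 155 and 187 RPM in the other states. miR1218 was at 65.5 and 31.1 RPM in FRE and PRE. For these 4 names FRE was the highest of the 5 states. miR1052 had another course, at 925 RPM in FRE and 412 RPM in PRE, 2.24-fold higher, after 352 RPM in HD, 2041 RPM in MDH and 1794 RPM in SDH.

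On the lower side, miR1043-3p had the largest downward change of all names, at 70.9 RPM in FRE and 583 RPM in PRE, 8.22-fold lower. Its levels were 859.5 RPM in HD, 6.9 RPM in MDH and 18.4 RPM in SDH, so that PRE came nearest to HD of the 4 later states. The scarcer miR2083-3p had a like course, at 7.5 RPM in FRE and 24.6 RPM in PRE, 3.28-fold lower, after 28.0, 4.0 and 3.7 RPM in HD, MDH and SDH. miR1073-5p was at 1.2 RPM in FRE and 7.3 RPM in PRE, and at 24.2 RPM in HD.

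miR2080, miR903, miR1076-5p and miR536f had their highest level of the 5 states in PRE. miR2080 was at 59.1 RPM in FRE and 263 RPM in PRE, 4.45-fold lower, beside 29.2 RPM in HD, 114 RPM in MDH and 102 RPM in SDH. miR903 was at 258 and 597 RPM in FRE and PRE, 2.32-fold lower, and at 104 RPM in HD. miR1076-5p was at 4.5 RPM in FRE and 16.8 RPM in PRE, 3.73-fold lower, and at 1.4 RPM in HD. miR536f, the scarce member of its family, was at 28.0 and 57.9 RPM, while miR536b lay on the other side of 0. miR1065, highest in SDH at 331 RPM, was at 117 RPM in FRE and 246.5 RPM in PRE. The scarce miR1062 (1.4 against 4.2 RPM) and miR1222b (0.3 against 4.2 RPM) complete the list.

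**Figure D4:**
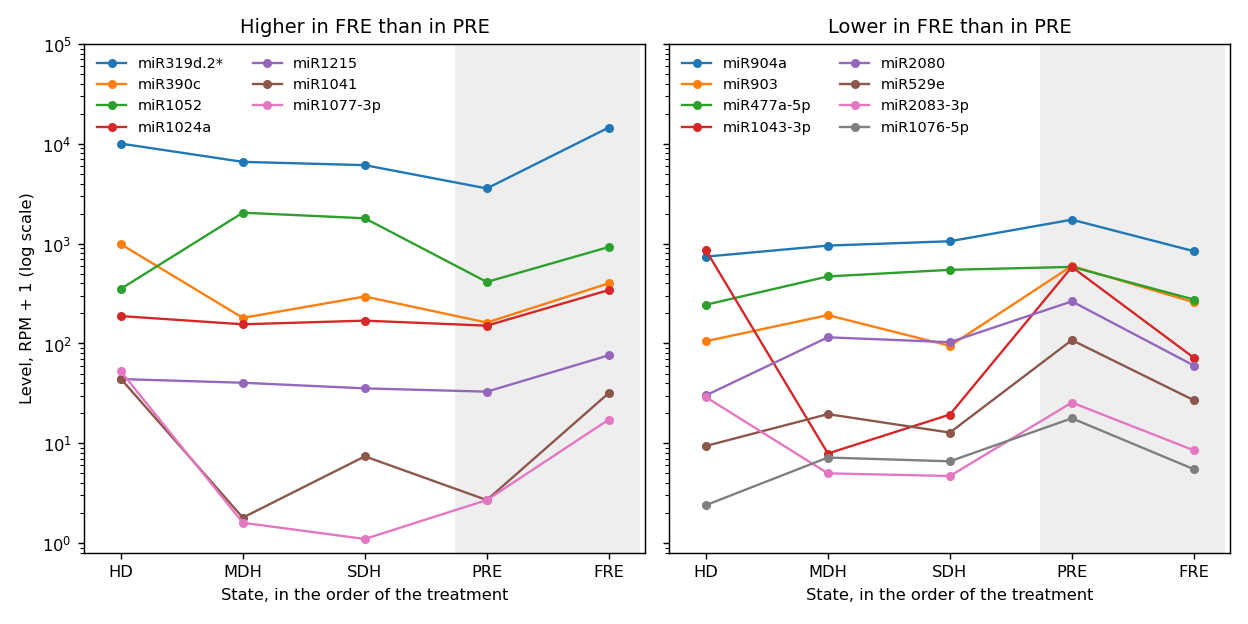
Levels of selected called miRNAs as RPM + 1 on a log scale across the 5 states in the order of the treatment, 1 authors' value per state, with PRE and FRE shaded. In the left panel miR1041 and miR1077-3p climb between PRE and FRE. In the right panel miR1043-3p, miR2080 and miR529e rise from SDH to PRE and stand lower in FRE, with miR1043-3p highest in HD.

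Several larger moss families stayed under 2-fold on the RPM scale, with members close to each other. The 7 compared miR1030 names, near-identical copies, were all lower, between -0.87 and -0.83 on the log2 scale, with miR1030d at 12.2 RPM in FRE and 22.8 RPM in PRE; scaled to the summed miRNA level the family passed 2-fold, at -1.35. The 8 miR1063 names, 2 values with copies counted once, lay between 0.48 and 0.49, with miR1063f at 154 and 109 RPM. Under scaling to the summed miRNA level the family's log2 fold change was 0.00. The 4 miR537 names, near-identical copies, were all at -0.52, and the family came to -1.01 under that scaling, also past 2-fold. In contrast, the 22 compared miR902 names ran from -0.57 for miR902l-3p to 0.92 for miR902c-3p, miR902e-3p and miR902g-3p, which share 1 level, 1674 RPM in FRE and 882 RPM in PRE. These 3 set the family sum of 6073 RPM in FRE and 3526 RPM in PRE. Of 10 miR1223 names none was called, and they ran from -0.92 to 0.27. The most abundant, miR1223a, was at 324 RPM in FRE and 399.6 RPM in PRE (-0.30).

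With members summed, 9 of 81 compared families were higher in FRE, 11.1% of those compared, and 8 were lower, 9.88%. The higher families were miR319, miR1041, miR1060, miR1072, miR1215, miR1024, miR1052, miR1218 and miR1219. The lower ones were miR1043, miR2080, miR903, miR408, miR1062, miR1065, miR904 and miR477. The miR477 sum lay at the threshold, with a log2 fold change of -1.003, and was no longer called with median-of-ratios scaling (-0.995) or with copies counted once (-0.98). The miR1219 sum was also lost with copies counted once (0.95). miR390, miR529, miR536, miR1073, miR1076, miR1077, miR1222 and miR2083 had called names but were not called as families.

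Both arms could be compared in 25 precursors. In 19 neither arm was called, in 2 both were (miR390c and miR477a) and in 4 only 1 was. Over all compared names 16.8% were called in either direction. The arms' log2 fold changes differed by a median of 0.40 and by 1 or more in 6 precursors. The widest gap was in miR1077, whose 3p arm was 9.59-fold higher in FRE while its 5p arm was at 16.0 RPM in FRE and 18.4 RPM in PRE. miR1076-5p was lower, and miR1076-3p was at 71.1 RPM in FRE and 70.3 RPM in PRE. miR2083-3p was lower, and miR2083-5p stood at 28.9 and 35.5 RPM. For miR1073 both arms were lower, the 3p arm at 39.2 RPM in FRE and 67.7 RPM in PRE. In miR1023a and miR1023b the arms lay on opposite sides of 0: miR1023a-5p was at 53.5 RPM in FRE and 28.2 RPM in PRE, 0.90 on the log2 scale, against -0.13 for miR1023a-3p. Of the 6 compared star arms 2 were higher, miR319d.2* and miR390c*, and none was lower, beside 7.01% and 9.81% over all names, with a median of 0.62. A star did not always mark the scarcer arm. In FRE miR1211* was at 737 RPM against 74.7 RPM for miR1211, and miR533a* at 999.7 against 399.1 RPM. miR390c* and miR898a* lay below their partners, at 18.2 against 399.7 RPM and 16.1 against 503.8 RPM.

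**Figure D5:**
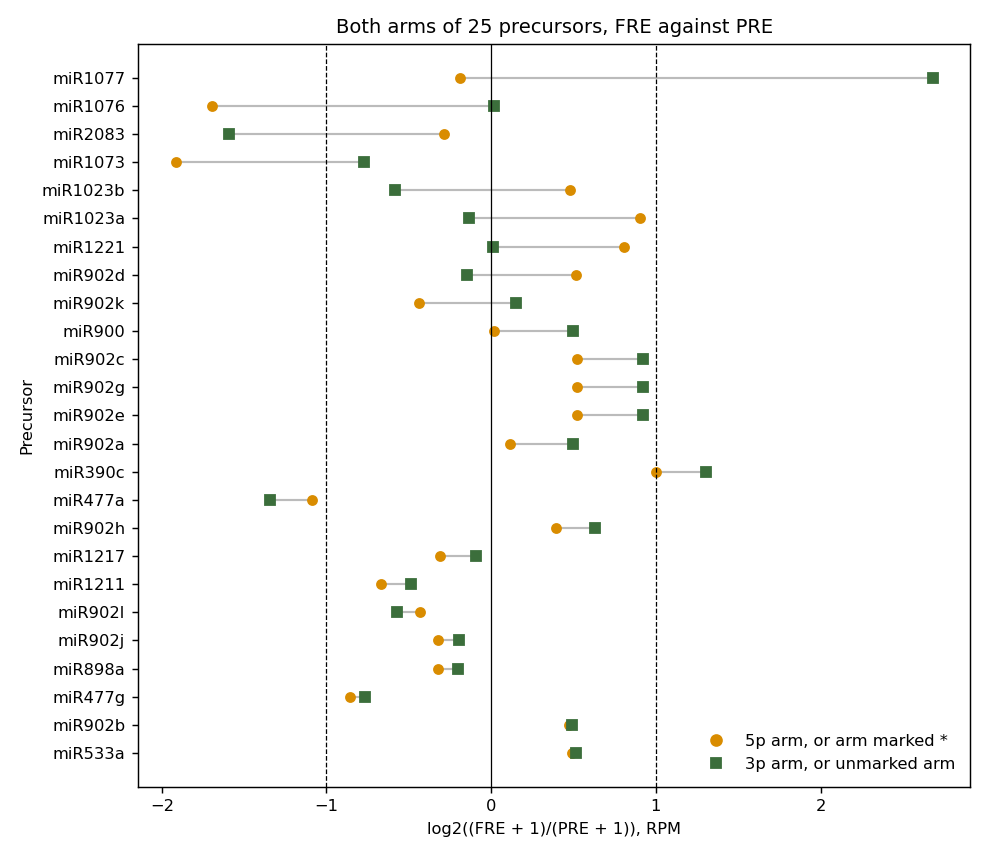
log2((FRE + 1)/(PRE + 1)) of both arms of 25 precursors, ordered by the gap between arms; circles are 5p or star arms, squares 3p or unmarked arms, and dashed lines mark 2-fold. The gap is 2.87 for miR1077 and under 0.2 for the precursors at the bottom, such as miR533a.

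Calls close to the threshold depend on small steps. Just inside on the higher side were miR390c*, miR1219a and miR1218, at log2 fold changes of 1, 1.01 and 1.05, and just outside were miR897 at 0.97 and miR902c-3p and miR902e-3p at 0.92. On the lower side miR536f, miR477d and miR904a lay just inside, at -1.02, -1.04 and -1.05, and miR1223d, miR1223c and miR1223b just outside, at -0.92, -0.91 and -0.88.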

How the data were processed

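Per the labels, total RNA was size selected to 18 to 30 nt, ligated to 5' and 3' adaptors, copied into cDNA and amplified by PCR. No source used here gives the aligner, the miRNA reference or how replicates were combined. The authors deposited RPM levels, 1 value per state in steps of 0.1 RPM; which reads make up the total is not stated. The authors' comparison tables hold the same levels beside a deposited expression score of 10 per RPM and a nominal total of 10000000, and deposited log2 fold changes and p-values against HD only, which were not used for a comparison of FRE with PRE. Read depth is therefore unknown.

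Groups came from sample titles. With 1 value per group the count test foreseen for libraries could not be used. The 2 RPM columns were joined by name and log2((FRE + 1)/(PRE + 1)) was computed with Python 3.11.15 and pandas 2.3.3 for names of at least 3 RPM in the higher state; printed folds are plain RPM ratios, given where both levels reach 1 RPM. Family sums add the RPM of all names of 1 family number. Near-identical copies are names of 1 family that differ by at most 5% or 0.5 RPM in every state; 120 names have such a copy, and reads shared between them cannot be assigned. The code was tested on simulated data.

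Named are the 12 largest changes in each direction among names of at least 10 RPM, the 5 most abundant in FRE, the largest change of each list, the most abundant member of families with 5 or more compared names, other arms, and the 3 names on each side of each threshold. Further names were given after their values were seen, to complete counts and families. Comparison, lists and rules were chosen with earlier results of these data known. The lists are by family number: SPL-related (miR156, miR529, miR535), auxin-related (miR160, miR167, miR390, miR393, miR1219), other developmental (miR166, miR171, miR319, miR534, miR538), nutrient and copper (miR395, miR397, miR398, miR399, miR408, miR827), small RNA machinery (miR162, miR168, miR403, miR904, miR1047), stress-linked in flowering plants (miR408, miR398, miR396, miR394, miR393, miR319, miR169, miR159), conserved (miR536, miR535, miR529, miR477, miR408, miR395, miR390, miR319, miR171, miR167, miR166, miR160, miR156), all others, and star arms.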

Additional observations from a re-analysis of the deposited data

How the results depend on the processing

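No paired analysis was possible because the files hold 1 column per state and none per library; leaving out replicates could not be run for the same reason. The counts of 15 higher and 21 lower names stayed within 1.5 times with no pseudocount, without a minimum, with a minimum of 10 RPM and with copies counted once. Some settings were no separate check. Replacing 0 by 0.01 RPM equalled the setting with no pseudocount, as no compared name was at 0 in either state. The authors' expression scores are the same levels times 10 and had to return the same counts. Median-of-ratios scaling, which hardly moved the levels, also left 15 and 21. A pseudocount of 10 RPM gave 8 higher names and 5 higher families, and a minimum of 30 RPM 8 higher names. No call could change direction in these settings, so their unchanged directions are no check. An equal pseudocount in both states keeps the sign of a log2 fold change. Scaling to the summed miRNA level shifts it by at most 0.49, below the 2-fold threshold. The median-of-ratios factors were close to each other, 0.998 in FRE and 1.004 in PRE.

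With the pseudocount of 10 RPM, 8 of 214 names were higher and 14 lower. Higher were 1 of 16 auxin-related names, 6 of 149 names outside the conserved list and 1 of 6 star arms. Lower were 6 of 149 names outside the conserved list, and 0 nutrient and copper and 0 stress-linked names, miR408b standing at -0.37. With the minimum of 10 RPM the auxin-related median was 0.84 and 0 stress-linked names were lower. With copies counted once, 1 of 8 SPL-related, 1 of 2 machinery and 6 of 38 conserved values were lower, beside 16 of 147 over all families. Of the auxin-related values 3 of 12 were higher, beside 12 of 147. The medians of the other developmental and machinery lists were then 0.39 and -0.67.

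Scaling to the summed miRNA level gave 5 higher and 50 lower of 214 names, and 4 higher and 17 lower families. Higher were then 0 of 16 auxin-related, 1 of 65 conserved, 4 of 149 other-family and 1 of 6 star names. Lower were 2 of 26 other developmental, 17 of 65 conserved, 33 of 149 other-family and 1 of 6 star names. The medians became -0.49 (SPL-related), -0.34 (auxin-related), -0.36 (other developmental), -1.44 (nutrient and copper), -1.54 (machinery), 0.31 (stress-linked), -0.36 (conserved), -0.46 (outside the conserved list) and 0.13 (star arms), with the common shift of all names in them. Which of the scalings is nearer to levels per cell was not tested.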

Other observations

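Calls fell in every class of level, beside 16.8% called over all names. Between 3 and 10 RPM 6 of 32 names were called (18.8%), and between 10 and 100 RPM 11 of 71 (15.5%). Between 100 and 1000 RPM it was 16 of 60 (26.7%), and at 1000 RPM or more 3 of 51 (5.88%). Near-identical copies are counted separately here. The median absolute log2 fold change in these classes was 0.30, 0.52, 0.49 and 0.17.

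Over the 5 states, PRE held the highest level in 15 of the 21 names lower in FRE, and in 43 of all 214 compared names. FRE held the highest level in 9 of the 15 names higher in FRE, and in 29 of all 214. HD held it in 4 of the 21 lower names, in 5 of the 15 higher names and in 78 of all 214. These counts share the PRE and FRE values that made the calls, so they are a description only.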
